A study of Mus musculus with 36 samples.

Results

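Mesenchymal stem cells (MSCs) grown from mouse fat (A-MSCs) were compared with MSCs grown from mouse lung (P-MSCs, labelled pulmonary) by RNA-seq, with 3 libraries of each tissue. The libraries were taken by their sample labels alone, and no gene was used to choose them. They are 6 of the 36 samples of a series that also holds MSCs of femoral (fBM-MSCs) and vertebral (vBM-MSCs) bone marrow and ATAC-seq of all 4 tissues. For the chromatin, the peak list of A-MSCs and that of P-MSCs were used, each called by the study on pooled ATAC-seq reads of 6 samples from 3 biological replicates. The donors were unmodified C57BL6/J mice, 8 weeks old. Both tissues were minced and digested with collagenase, red blood cells were removed, and the cells were grown on collagen I for at most 3 passages in MesenCult medium to which MesenPure, a supplement, and a Rock kinase inhibitor had been added, the same in every culture. The fat depot is not stated in the sources used here. The study took its 4 tissues from 3 mice, and no source used here ties a library to its mouse. Each library is a culture of many cells, so fewer cells of a type and less RNA per cell cannot be told apart. The p-values given here measure only the spread between cultures, estimated from 11 RNA-seq libraries that include those of marrow.

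MSCs are the adherent stromal cells of a tissue. They can form fat, bone and cartilage in culture, they make extracellular matrix, and they secrete factors that act on immune cells. Stromal cells keep a transcriptional record of where in the embryo they came from: Hox transcription factors are active in clusters that follow the body axis, the T-box factors Tbx4 and Tbx5 and the forkhead factor Foxf1 mark the mesenchyme that builds the lung, and Wt1 marks the mesothelium, the cell layer that lines the body cavities and covers visceral fat and the lung. Open chromatin, which ATAC-seq detects by insertion of a transposase, marks the promoters and distal elements that such factors can bind.

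The promoters of 2 genes with some of the largest differences in RNA are shown first, because each held an open region in the list of the tissue that expressed the gene and none at the study's threshold in the other. For each, the 250 bases before the start site are given from RefSeq (GRCm38.p6, the assembly of mm10), on the strand of the gene, with capitals for any of 9 motifs found there.
Wt1 (chr2:105126279-105126528, plus strand): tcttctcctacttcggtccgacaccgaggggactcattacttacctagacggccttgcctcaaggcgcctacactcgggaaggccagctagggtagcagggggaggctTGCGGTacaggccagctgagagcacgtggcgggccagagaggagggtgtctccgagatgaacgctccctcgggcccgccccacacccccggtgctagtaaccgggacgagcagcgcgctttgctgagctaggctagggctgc
Masp1 (chr16:23520816-23521065, minus strand): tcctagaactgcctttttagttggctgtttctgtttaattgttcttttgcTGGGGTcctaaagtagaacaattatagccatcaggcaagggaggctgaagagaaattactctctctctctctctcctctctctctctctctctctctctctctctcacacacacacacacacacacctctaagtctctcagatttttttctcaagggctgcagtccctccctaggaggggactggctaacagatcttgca
Wt1 was higher in A-MSCs and Masp1 in P-MSCs. The open summit lay 16 bp upstream of the Wt1 start site, with a fold enrichment of 25.0 over the genome-wide background in the A-MSC list. The P-MSC summit lay 177 bp downstream of the Masp1 start site, at 5.89. The Wt1 stretch held the RUNX motif TGNGGT at position −142 and the Masp1 stretch held it at −200. Of 32851 RefSeq promoters of the same length, 40.1% held this motif on either strand, so these matches are common and are given as description only. The Wt1 stretch overlaps exon 1 of Wt1os, a non-coding gene on the other strand.

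A further 4 open sites away from promoters are shown for the motifs whose frequency differed between the tissues. Each is the strongest distal summit of its list without a region in the other list that carried the motif and lay in, or within 100 kb of the start of, a gene called in the same direction. The 201 bases centred on the summit are given on the plus strand, with the motif in capitals, which reads as its reverse complement where it lies on the minus strand. Words of other searched families stay in lower case: the site in Wt1 also held AP-1, FOX, RUNX and TEAD words, and the site near Sorcs1 an AP-1 word.
EBF motif, A-MSC list alone, intron of Fbn1 (chr2:125454840-125455040): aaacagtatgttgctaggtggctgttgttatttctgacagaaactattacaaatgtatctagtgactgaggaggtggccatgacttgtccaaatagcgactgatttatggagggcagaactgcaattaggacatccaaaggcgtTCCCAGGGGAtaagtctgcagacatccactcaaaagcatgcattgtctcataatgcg
GATA motif, A-MSC list alone, intron of Wt1 (chr2:105162859-105163059): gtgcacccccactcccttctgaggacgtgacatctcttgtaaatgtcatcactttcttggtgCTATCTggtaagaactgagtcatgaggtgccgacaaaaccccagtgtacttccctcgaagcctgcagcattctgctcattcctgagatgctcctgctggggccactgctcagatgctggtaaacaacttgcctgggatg
FOX motif, P-MSC list alone, intron of Sorcs1 (chr19:50487832-50488032): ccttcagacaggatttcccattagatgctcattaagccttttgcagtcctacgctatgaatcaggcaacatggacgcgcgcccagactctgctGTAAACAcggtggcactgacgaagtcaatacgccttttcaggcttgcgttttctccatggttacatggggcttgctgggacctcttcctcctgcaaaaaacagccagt
AP-1 motif, P-MSC list alone, intron of Mecom (chr3:30468113-30468313): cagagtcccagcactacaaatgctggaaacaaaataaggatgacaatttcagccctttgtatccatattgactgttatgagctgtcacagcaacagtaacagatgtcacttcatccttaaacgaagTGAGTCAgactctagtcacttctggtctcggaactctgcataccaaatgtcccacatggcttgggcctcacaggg
Their fold enrichments were 34.9 for the EBF site, 31.3 for the GATA site, 22.1 for the FOX site and 25.8 for the AP-1 site. The GATA site lay 36430 bp from the start of Wt1, and the AP-1 site 41462 bp from that of Mecom, a zinc finger factor. Mecom was at 0.15, 0.43 and 0.42 TPM (a transcript level scaled by RSEM for transcript length and library depth) in the A-MSC libraries and at 5.62, 5.83 and 5.63 TPM in the P-MSC libraries. Fbn1, which encodes the microfibril protein fibrillin 1, was at 18.6, 11.8 and 13.5 TPM in A-MSCs and 8.33, 10.1 and 7.6 TPM in P-MSCs (log2 fold change 0.94 ± 0.31, called at an adjusted p of 0.0389 and lost without any 1 of the 6 libraries but A-MSC replicate 2, up to 0.135 without A-MSC replicate 1). Sorcs1, a sorting receptor, was at 0 TPM in every A-MSC library and at 0.57, 0.92 and 0.50 TPM in P-MSCs. The libraries of the 2 tissues did not overlap for Mecom, Fbn1 or Sorcs1.

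The A-MSC libraries held between 31767591 and 39802027 expected counts (reads assigned to genes by RSEM), and the P-MSC libraries between 31089045 and 40517739. The 10 most abundant genes took 24.78 to 27.14% of the counts in A-MSCs and 18.01 to 19.55% in P-MSCs. Across all genes, Pearson's r of log2(TPM + 1) was 0.9924 to 0.9934 between A-MSC libraries, 0.9954 to 0.9959 between P-MSC libraries and 0.9735 to 0.9777 between the tissues. The 12509 genes that reached a CPM (counts scaled to library size) of 1 in 2 or more libraries went into the test with edgeR in 1 model of the 11 RNA-seq libraries of the 4 tissues, and a gene was called at an adjusted p under 0.05. Log2 fold changes are given as A-MSC over P-MSC with their standard error (SE) and, where printed, the Benjamini-Hochberg adjusted p of edgeR's quasi-likelihood test.

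Between A-MSCs and P-MSCs, 3869 of the 12509 tested genes were called (30.9%), of which 2001 were higher in A-MSCs (16.0% of the tested genes) and 1868 higher in P-MSCs (14.9%). The median log2 fold change of all tested genes was −0.01. The shares of 16.0 and 14.9% are the background for every count of called list members below. The libraries of the 2 tissues did not overlap in TPM for 57.0% of the tested genes. Larger differences were more often in favour of A-MSCs: at 4-fold or more, 465 called genes were higher in A-MSCs and 257 in P-MSCs, and at 32-fold or more 117 and 53. Of the calls, 51.7% were higher in A-MSCs. This even split depended on the scale. On TPM, which gives the most abundant transcripts their full share of a fixed sum, limma-trend on log2(TPM + 1) placed only 30.1% of its calls higher in A-MSCs, with the median of all genes shifted by −0.157 (log2). With the library medians aligned, a setting added after the data were seen, it placed 57.7%.

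**Figure D1:**
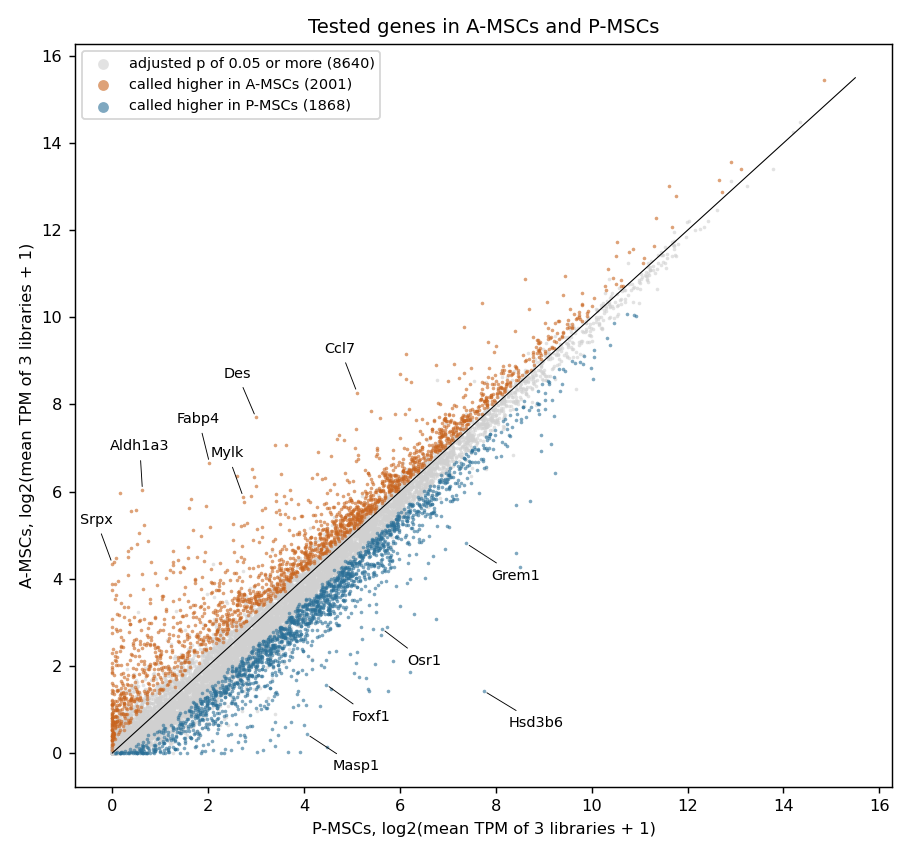
Mean level of each tested gene in P-MSCs (x axis) and A-MSCs (y axis), both as log2(mean TPM of 3 libraries + 1), with the line of equal level. Orange points are the 2001 genes called higher in A-MSCs and blue points the 1868 called higher in P-MSCs, and genes such as Aldh1a3 and Des lie far above the line and Hsd3b6 and Masp1 far below it.

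The genes with the largest differences in favour of A-MSCs were close to absent in P-MSCs. Srpx, which encodes a secreted protein with sushi repeats, was at 17.96, 21.12 and 19.06 TPM in A-MSCs and at 0 in all 3 P-MSC libraries, at least 1230-fold higher when the P-MSC counts are set at a floor of 3 over the group. Wt1, the mesothelial zinc finger factor, was at 10.6, 14.9 and 11.7 TPM against 0 in every P-MSC library and in every marrow library, at least 1030-fold higher (adjusted p = 3.72e-05). Hoxc8 was at 18.5, 13.1 and 9.65 TPM against 0, at least 818-fold higher (adjusted p = 3.85e-06). None of these overlapped between the tissues. Gdf6, a ligand of the BMP family, had a log2 fold change of 9.78 ± 0.81 (SE), with 15.2, 20.6 and 24.2 TPM against 0, 0.01 and 0.06. Asic3, an acid-sensing ion channel, was at 54.7, 57.4 and 73.4 TPM against at most 0.19 (log2 fold change 9.27 ± 1.08). Inhbb, which encodes the βB subunit of inhibins and activins, was at 13.0 to 14.9 TPM against 0.01 to 0.12 (8.21 ± 0.71). Saa3, an acute-phase serum amyloid, was at 12.2, 13.5 and 38.5 TPM against 1 read in all P-MSC libraries together, a ratio of 484 (95% counting interval 86.3 to 19100), and its fitted change of 8.40 was 7.70 without A-MSC replicate 3 and 10.12 without P-MSC replicate 3. The remaining 3 of the 10 were the keratins Krt7 and Krt8 and the urothelial and mesothelial protein Upk3b, described with the mesothelial genes.

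In the other direction, the leading genes included a lectin, a neurotrophin and a steroid enzyme. Mgl2, a C-type lectin best known from macrophages and dendritic cells, was at 14.1, 12.8 and 15.4 TPM in P-MSCs and had 1 read in all A-MSC libraries together, a ratio of 1200 (95% counting interval 215 to 47500). Its close paralogue Clec10a could share reads with it. Ntf3, the neurotrophin 3 gene, was at 8.18, 15.3 and 11.6 TPM against 1 read in A-MSCs, a ratio of 804 (144 to 31800). Hsd3b6, a 3β-hydroxysteroid dehydrogenase of steroid synthesis with near-identical paralogues, was the most abundant of the group, at 203, 224 and 216 TPM against 2.42, 2.49 and 0.15 (log2 fold change −6.80 ± 1.10, adjusted p = 0.00107). The libraries of the tissues did not overlap for any of them. Dkk2, a secreted modulator of Wnt signalling, was at 8.84 to 10.47 TPM against 0 to 0.30 (−6.06 ± 1.19). Masp1, a serine protease of the lectin complement pathway, was at 18.1, 14.2 and 14.8 TPM against 0.51, 0.20 and 0.34 (−5.31 ± 0.32, adjusted p = 2.4e-06). Ano1, a calcium-activated chloride channel, and Ngef, a guanine nucleotide exchange factor, had log2 fold changes of −5.08 ± 0.76 and −4.61 ± 0.66. The transcription factors Tbx4 and Prdm6, also among these leading genes, are described with the lung genes. Each of the 20 leading genes stayed called whichever 1 library was left out, with the highest adjusted p at 0.0177 for Dkk2. The lower tissue held few reads of these genes, and single libraries moved their fitted changes: without P-MSC replicate 1 that of Inhbb was 10.35, that of Gdf6 9.15 and that of Asic3 8.62, without P-MSC replicate 3 that of Gdf6 was 11.52 and that of Asic3 9.88, without A-MSC replicate 2 that of Dkk2 was −8.05, that of Ano1 −6.67, that of Mgl2 −11.62 (−9.77 with all libraries) and that of Ntf3 −11.08 (−9.24 with all), and without A-MSC replicate 1 that of Ngef was −5.21.

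**Figure D2:**
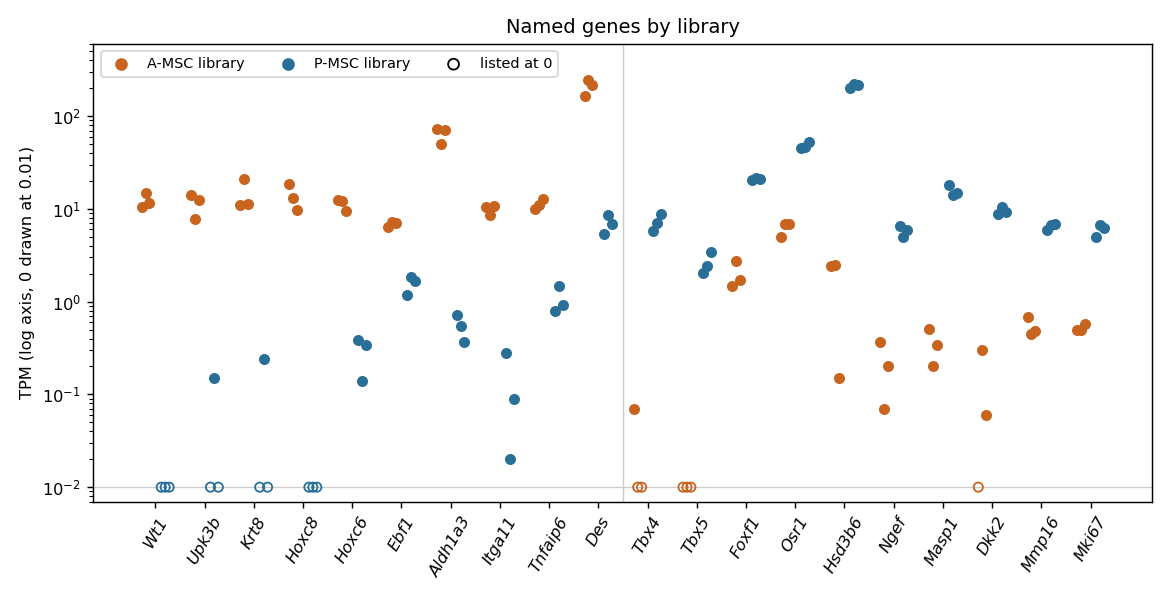
TPM (log axis) of 20 named genes in each of the 3 A-MSC libraries (orange) and 3 P-MSC libraries (blue), with open circles at 0.01 for libraries listed at 0. To the left of the grey line every A-MSC library lies above every P-MSC library, and to its right every P-MSC library lies above every A-MSC library.

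Of the lists with at least 6 tested genes, that of the mesothelium had the highest median. Of 16 genes of the mesothelial list found in the files, 14 were tested, 11 were called higher in A-MSCs and 1 in P-MSCs, with a median log2 fold change of 5.04 against −0.01 for all tested genes. Wt1 and the 2 other tested members at 0 in every P-MSC library, Gpm6a (a neuronal and mesothelial membrane glycoprotein, 6.25, 1.53 and 3.90 TPM in A-MSCs, at least 289-fold) and Lrrn4 (a leucine-rich repeat protein, 2.37, 1.02 and 2.82 TPM, at least 188-fold), were also at 0 in all marrow libraries. The keratins Krt7, Krt8 and Krt18 of simple epithelia were also higher in A-MSCs. Krt8 was at 11.1, 21.0 and 11.2 TPM against 0, 0.24 and 0 (log2 fold change 7.78 ± 1.0), its partner Krt18 at 11.2, 27.1 and 11.1 TPM against 0.72 to 1.01 (4.47 ± 0.68), and Krt7 had 3 reads in P-MSCs, a ratio of 409 (95% counting interval 140 to 1990). Upk3b was at 13.98, 7.76 and 12.6 TPM against 0, 0.15 and 0 (8.05 ± 1.07, adjusted p = 0.000694). In none of these did the tissues overlap. Not all mesothelial genes took part: Msln, the mesothelin gene, was also present in P-MSCs, at 1.61 to 2.94 TPM against 5.37 to 12.2 (2.26 ± 0.73), and lost its call without any 1 of the 6 libraries but A-MSC replicate 2 (adjusted p up to 0.122, without A-MSC replicate 1). Krt19 went the other way, at 17.1 to 18.9 TPM in A-MSCs and 51.7 to 59.8 in P-MSCs (−1.39 ± 0.43), a call lost without any 1 of the 6 libraries (adjusted p up to 0.0845, without A-MSC replicate 3). Aldh1a2, a retinal dehydrogenase of mesothelium, was not called, at 21.4 to 23.65 TPM in A-MSCs and 17.26 to 21.22 in P-MSCs, and neither was Nkain4, at 21.13 to 31.55 and 31.85 to 39.31 TPM. Of 14 markers of other epithelia, 13 were too low to be tested, with Epcam at most 0.41 TPM and Cdh1, the E-cadherin gene, at most 0.22 TPM in any of the 6 libraries, whereas the 1 tested, the basal keratin Krt14, was called higher in A-MSCs, at 4.35, 2.96 and 5.4 TPM against 1 read in P-MSCs. Without P-MSC replicate 2, which held all their P-MSC reads, the fitted changes of Krt8 and Upk3b were 12.13 and 12, and without P-MSC replicate 1 they were 7.15 and 7.42. Those of Krt7 and Krt14, 8.44 and 8.47, were 11.47 and 10.23 without P-MSC replicate 2, and that of Krt7 was 7.83 without P-MSC replicate 1.

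Hox genes differed by cluster. Of 26 tested Hox genes, 13 were called higher in A-MSCs and 1 in P-MSCs, with a median log2 fold change of 2.01. All 7 tested genes of the HoxC cluster were called higher in A-MSCs, and the summed TPM of the cluster was 39.3 to 50.4 in the A-MSC libraries and 1.20 to 1.62 in the P-MSC libraries. Hoxc6 was at 12.6, 12.2 and 9.59 TPM against 0.39, 0.14 and 0.34 (5.45 ± 0.36, adjusted p = 4.33e-06) and Hoxc5 at 5.19, 7.89 and 4.57 TPM against 0.22 to 0.31 (4.62 ± 0.37). Hoxc4, the most anterior member, was the one member with P-MSC levels near 1 TPM, at 0.67 to 0.97 against 3.46 to 5.32 (2.67 ± 0.39). Towards the posterior end, Hoxc13 was at 3.12, 2.35 and 4.09 TPM and Hoxc10 at 0.69, 0.93 and 1.84 TPM, and both were at 0 in all P-MSC libraries, at least 198-fold and at least 55.8-fold higher in A-MSCs. The libraries did not overlap for any tested HoxC gene.

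The HoxD cluster showed the same at lower levels. All 3 tested genes were called higher in A-MSCs, and Hoxd8 (2.76, 2.47 and 2.58 TPM), Hoxd9 (0.57, 1.11 and 0.58) and Hoxd10 (0.06, 0.75 and 0.75) were at 0 in every P-MSC library, at least 108-fold, 41.0-fold and 25.0-fold higher. Exons of Hoxd8 overlap those of the predicted gene Gm38462, which reads without strand cannot tell apart. In the HoxA cluster the summed TPM was lower in A-MSCs, at 26.2 to 39.1 against 39.4 to 47.2 in P-MSCs, without overlap, while only posterior members were called, all higher in A-MSCs: Hoxa9 (0.49, 1.90 and 2.24 TPM against 0, 0.18 and 0.22, log2 fold change 3.79 ± 0.87, between 3.16 without P-MSC replicate 1 and 4.45 without P-MSC replicate 3), Hoxa10 (0.70, 2.10 and 6.29 TPM against 0.02 to 0.11, 5.97 ± 1.07, between 4.85 without A-MSC replicate 3 and 7.16 without P-MSC replicate 1) and Hoxa11, which rested on 2.42 TPM in A-MSC replicate 3 and lost its call without it (adjusted p = 0.0819) or without any 1 P-MSC replicate (adjusted p up to 0.0595). The anterior Hoxa5, at 8.23, 11.7 and 9.99 TPM against 20.5, 18.01 and 23.2, was not called (−0.85 ± 0.46, adjusted p = 0.182). No HoxA gene was called higher in P-MSCs. The nearest HoxA sums of the tissues, 39.1 and 39.4 TPM, lay close together. On log2(TPM + 1) the median of all genes was itself shifted by −0.157. The summed TPM of the HoxB cluster overlapped, at 37.0 to 60.5 in A-MSCs and 56.7 to 65.7 in P-MSCs. Its 1 call was Hoxb5, at 1.23 to 2.14 TPM in A-MSCs and 7.59 to 10.3 in P-MSCs (−2.05 ± 0.56). That call was lost without A-MSC replicate 1, P-MSC replicate 2 or P-MSC replicate 3 (adjusted p up to 0.0722, without P-MSC replicate 2).

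**Figure D3:**
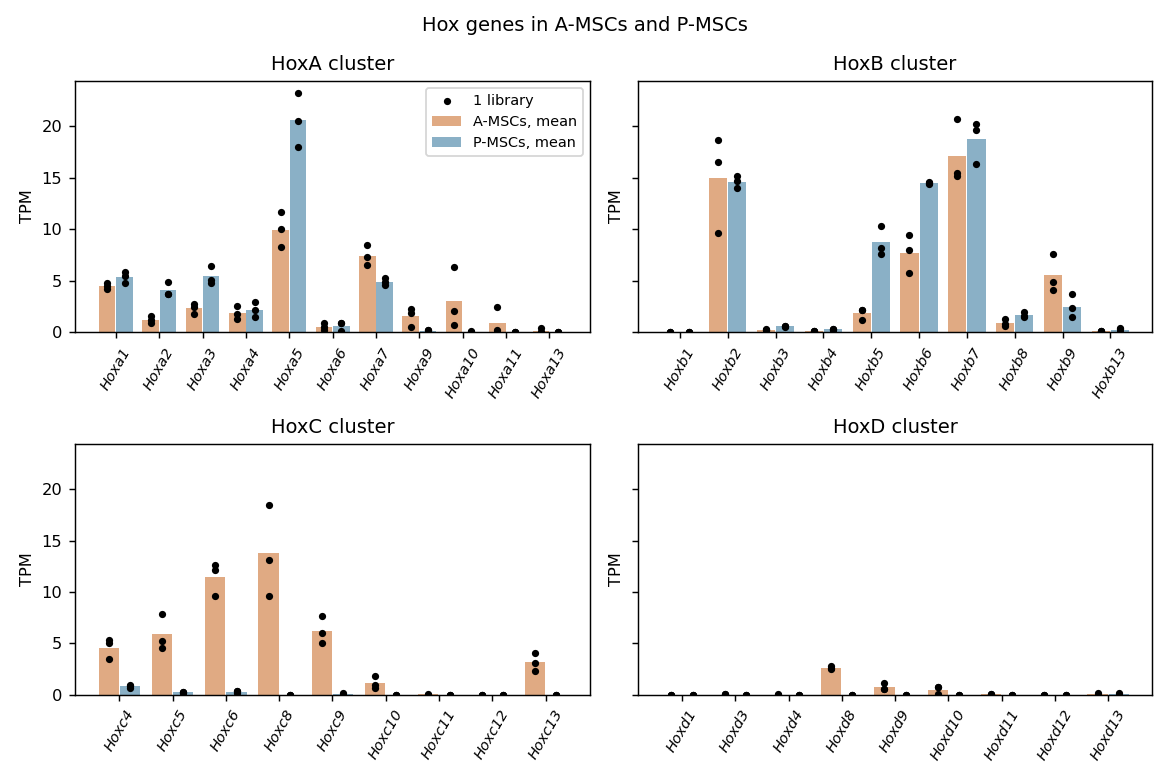
TPM of the genes of the 4 Hox clusters in order along each cluster, with bars for the mean of 3 A-MSC (orange) or P-MSC (blue) libraries and points for single libraries. The summed HoxB TPM of the tissues overlap, HoxC genes sum to 39.3 to 50.4 TPM in A-MSCs and at most 1.62 TPM in P-MSCs, and HoxD genes are near 0 in P-MSCs.

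At the HoxC and HoxD clusters most regions were in the A-MSC list alone, whereas over all regions 27.1% of the A-MSC list and 20.6% of the P-MSC list were alone. Across the 125.7 kb of the HoxC cluster the A-MSC list held 14 regions, of which 13 had no overlapping region in the P-MSC list, and the P-MSC list held 2, of which 1 was alone. Across the 106.9 kb of the HoxD cluster the A-MSC list held 9 regions, all alone, and the P-MSC list 1. The HoxA cluster was open in both, with 18 regions in the A-MSC list (3 alone) and 17 in the P-MSC list (1 alone), and HoxB, whose summed RNA overlapped, held 10 (6 alone) and 11 (7 alone), above those shares in both lists. The promoter of Hoxd8 had a summit at 11.04-fold enrichment in A-MSCs, whereas in P-MSCs its −log10 q of 3.76 stayed under the threshold of 7. The promoter of Hoxc4 went against its RNA, with a summit past the threshold in P-MSCs (7.36-fold, −log10 q of 12.13) and below it in A-MSCs (4.41-fold, 4.62).

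Of the factors that pattern the lung mesenchyme, more were called higher in P-MSCs than in A-MSCs. Of 15 tested members of that list, 8 were called higher in P-MSCs and 3 in A-MSCs, with a median log2 fold change of −1.08. Among all tested genes, 14.9% were called higher in P-MSCs and 16.0% in A-MSCs. Tbx4 was at 5.73, 6.98 and 8.77 TPM in P-MSCs and at 0.07, 0 and 0 in A-MSCs (log2 fold change −8.18 ± 0.80, adjusted p = 5.07e-05, −11.77 without A-MSC replicate 1 and −7.56 without A-MSC replicate 2). Tbx5 was at 2.04, 2.41 and 3.43 TPM and at 0 in every A-MSC library, at least 213-fold higher in P-MSCs. Foxf1 was at 20.4, 21.5 and 21.2 TPM against 1.46, 2.74 and 1.72 (−3.21 ± 0.49, adjusted p = 0.000768). None of the 3 overlapped between the tissues, whereas the marrow libraries reached 1.39 TPM of Tbx4 and 12.7 TPM of Foxf1. Osr1, a zinc finger factor of lung and kidney mesenchyme, was at 45.7, 46.5 and 53.1 TPM in P-MSCs and 4.95 to 6.88 in A-MSCs (−2.76 ± 0.35), and Foxp1 was 2.64-fold higher (−1.40 ± 0.11, adjusted p = 1.47e-05). Fgf7, a growth factor for the lung epithelium, was at 128 to 157 TPM against 45.7 to 82.8 (−1.08 ± 0.22). Its relative Fgf10, which drives budding of the airways, was called in neither direction, at 1.88 to 2.81 TPM in P-MSCs and 2.26 to 2.93 in A-MSCs (0.34 ± 0.52). The 3 members higher in A-MSCs, Wnt2, Bmp4 and Tcf21, each lost the call without 1 library or more: without P-MSC replicate 3 the adjusted p was 0.0913 for Wnt2, 0.0621 for Bmp4 and 0.118 for Tcf21, and no member was called higher in A-MSCs. None was without A-MSC replicate 1 either, and 1 was without A-MSC replicate 3, P-MSC replicate 1 or P-MSC replicate 2. Of the members higher in P-MSCs, Tbx2 (−2.32) lost its call without any 1 of the 6 libraries or fBM-MSC replicate 2 (adjusted p up to 0.116, without A-MSC replicate 2).

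Among all 233 tested genes of the transcription factor families searched by name, calls were even, with 44 higher in A-MSCs, 42 higher in P-MSCs and a median log2 fold change of −0.01. Over all tested genes, 16.0 and 14.9% were called in these directions. Beside Tbx4, Tbx5 and Foxf1, the leading factors of P-MSCs included Prdm6, Foxl1 and Lhx9. Prdm6, a repressor known from smooth muscle, was at 21.0, 20.6 and 22.3 TPM in P-MSCs and at 0, 0 and 0.29 in A-MSCs (−7.49 ± 1.23, −13.10 without A-MSC replicate 3, which held its A-MSC reads, and −6.87 without A-MSC replicate 2). Foxl1, a forkhead factor of gut and lung mesenchyme, was at 5.14, 5.10 and 5.16 TPM against 0.03 to 0.38 (−4.61 ± 0.80, and −5.84 without A-MSC replicate 3), and Lhx9, a LIM homeobox factor, was at 8.45 to 10 TPM against 0.12 to 0.67 (−4.08 ± 0.70). Neither overlapped between the tissues. Apart from Wt1 and Hox genes, the leading factor of A-MSCs was Ebf2, a marker of brown and beige fat progenitors, at 2.71, 2.07 and 1.67 TPM against 0.33, 0.03 and 0.03 (4.18 ± 1.19, adjusted p = 0.0203, but 0.0725 without P-MSC replicate 2 and 0.075 without P-MSC replicate 3). Its fitted change was 6.39 without P-MSC replicate 1.

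The surface proteins by which the study characterised its MSCs were measured at the RNA level. Itgb1, the β1 integrin (CD29), was higher in P-MSCs, at 822, 970.0 and 924 TPM against 522, 480.0 and 466 (log2 fold change −0.70 ± 0.14, adjusted p = 0.00345). Vcam1 (CD106) was also higher there, at 113, 116 and 117 TPM against 53.1, 38.5 and 36.3 (−1.25 ± 0.20), while Ly6a, the Sca-1 gene, was higher in A-MSCs, at 145, 121 and 114 TPM against 42.3, 46.5 and 46.1 (1.70 ± 0.24, adjusted p = 0.00046). The tissues overlapped for none of these 3. Cd44 overlapped, at 367 to 405 TPM in A-MSCs and 352 to 400 in P-MSCs (0.24 ± 0.27, adjusted p = 0.544). Of the markers taken as absent from MSCs, Ptprc (CD45) was at most 0.35 TPM in any library and was not tested, and Cd34 was at 0.91 to 1.18 TPM in A-MSCs and 1.69 to 5.15 in P-MSCs (adjusted p = 0.112). Pecam1 (CD31) was at 3.84 TPM in A-MSC replicate 1 and at most 0.34 in the other 5 libraries. In the wider list of 12 MSC surface markers, 4 were called higher in A-MSCs and 3 in P-MSCs, with a median of 0.31. Pdgfrb, a receptor of pericytes and fibroblasts, was at 32.9 to 37.7 TPM against 16.3 to 18.8 (1.25 ± 0.13), and Alcam, an adhesion molecule, at 1.73 to 2.77 TPM against 11.6 to 16.3 (−2.39 ± 0.50).

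Adipocyte genes leaned towards A-MSCs. Of 18 tested members, 8 were called higher in A-MSCs and 3 in P-MSCs, with a median log2 fold change of 0.95, and 5 were called higher in A-MSCs without P-MSC replicate 3. Fabp4, the fatty acid binding protein of adipocytes, was at 118, 42.4 and 140.1 TPM against 3.84, 2.68 and 2.71 (5.24 ± 0.58, adjusted p = 0.000106). Cd36, the fatty acid transporter, was at 3.41, 0.62 and 6.17 TPM against 0 to 0.09 (6.79 ± 1.22), and Cebpa, a driver of adipocyte differentiation, at 1.31, 0.89 and 0.74 TPM against 0.02 to 0.15 (3.85 ± 0.63). The libraries of the tissues did not overlap for these. The change of Cd36 was 6 without A-MSC replicate 3, 6.18 without P-MSC replicate 1 and 8.92 without P-MSC replicate 3, and that of Cebpa was 4.88 without P-MSC replicate 1. Ebf1, an early fat cell factor, was at 6.38, 7.27 and 7 TPM against 1.18, 1.83 and 1.65 (2.34 ± 0.30, adjusted p = 0.000264). Pparg, the master regulator of fat cells, was at 3.72 to 5.94 TPM against 2.26 to 3.48 and was not called (0.92 ± 0.39, adjusted p = 0.093). The products of mature adipocytes were uneven among the A-MSC libraries: Adipoq (adiponectin) was at 2.69, 0 and 14.6 TPM, Plin1 (perilipin 1) at 0, 0.38 and 1.97 TPM and Cfd (adipsin) at 1.14, 0 and 5.97 TPM, all at 0 in P-MSCs, and Lep (leptin) was at 0 in all 6 libraries. The call of Adipoq was lost without any 1 of the 6 libraries but A-MSC replicate 2 (adjusted p up to 0.124, without A-MSC replicate 3). In P-MSCs, the higher genes were Plin2, the lipid droplet coat of most cell types, at 292 to 328 TPM against 154 to 159 (−0.79 ± 0.09), Cebpd and Fasn, whose call was lost without A-MSC replicate 1 or P-MSC replicate 2 (adjusted p = 0.0596 and 0.0591). Of 10 tested markers of fibroblast progenitors in fat, 4 were called higher in A-MSCs and 1, Sema3c, a secreted semaphorin, in P-MSCs (49.1, 60.8 and 59.8 TPM against 3.37, 4.25 and 2.41, −3.89 ± 0.35), and the count higher in A-MSCs was 1 without A-MSC replicate 3, 2 without P-MSC replicate 1 and 0 without P-MSC replicate 2 or 3.

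Contractile genes of smooth muscle were among the most abundant transcripts of both tissues, and more of them were called higher in A-MSCs than in P-MSCs. The list summed to between 20400 and 21000 TPM in the A-MSC libraries and between 9520 and 10900 in the P-MSC libraries, and 11 of 20 tested members were called higher in A-MSCs and 2 in P-MSCs, with a median of 0.87. Acta2, the smooth muscle actin, was at 8429, 8453 and 8060.4 TPM against 2885, 3311 and 3244 (1.60 ± 0.15, adjusted p = 3.33e-05). Actg2, the enteric smooth muscle actin, whose sequence is near that of Acta2, was at 1841 to 1915 TPM against 297 to 443 (2.47 ± 0.42). Neither overlapped between the tissues. Des, the intermediate filament desmin, had the largest change towards A-MSCs, at 163, 245 and 216 TPM against 5.33, 8.61 and 6.94 (5.10 ± 0.29, adjusted p = 2.03e-06). Mylk, the myosin light chain kinase, was at 53.4 to 64.8 TPM against 4.56 to 6.66 (3.55 ± 0.43). The 2 members higher in P-MSCs were Prdm6 and Cspg4, the NG2 proteoglycan of pericytes, at 3.56 to 5.86 TPM against 1.01 to 1.60 (−1.81 ± 0.30). Of the markers of differentiated cells, Myh11, the smooth muscle myosin, was not called, at 5.28 to 8.38 TPM against 3.41 to 5.05 (0.82 ± 0.37), and Rgs5, a pericyte gene, was at most 0.37 TPM.

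The genes of the matrix differed gene by gene. Among 25 tested collagens, 3 were called higher in A-MSCs and 4 in P-MSCs (median 0.26), beside 16.0 and 14.9% of all tested genes. This balance changed under 12 of the 21 alternatives. Without A-MSC replicate 1 or P-MSC replicate 2 only 1 was called higher in P-MSCs and without A-MSC replicate 3 only 2, and without fBM-MSC replicate 3, 6 were called higher in A-MSCs. Col3a1, the fibrillar collagen of elastic tissues, stood out at 43.2, 55.3 and 61.6 TPM in A-MSCs against 4.46, 5.65 and 6.93 in P-MSCs (log2 fold change 3.43 ± 0.31, adjusted p = 3.03e-05). Col1a1, its abundant partner, overlapped between the tissues and was not called, at 539, 718 and 775 TPM against 501 to 565 (0.55 ± 0.32, adjusted p = 0.216). Col11a1, a fibril-nucleating collagen, was at 0.90 to 1.51 TPM against 4 to 5.08 (−1.71 ± 0.33, adjusted p = 0.00306). Of 9 tested small leucine-rich proteoglycans, which coat collagen fibrils, 3 were called higher in A-MSCs (5 without fBM-MSC replicate 3) and 1 in P-MSCs, with a median of 2.24. Prelp was at 31.2, 26.3 and 48.6 TPM against 2.41 to 3.63 (3.71 ± 0.62), Fmod (fibromodulin) at 4.75 to 9.40 TPM against 0.33 to 0.96 (3.41 ± 0.73), and Dcn (decorin) at 18.9, 22.5 and 44.1 TPM against 3.86 to 5.73 (2.79 ± 0.45). The tissues did not overlap in any of these. Bgn (biglycan), the 1 member higher in P-MSCs, differed little, at 902 to 991 TPM against 1376 to 1458 (−0.40 ± 0.12), and lost its call without any 1 of the 6 libraries, with the highest adjusted p at 0.104 without A-MSC replicate 2.

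Among 21 tested genes of elastic fibres, 7 were called higher in A-MSCs and 4 in P-MSCs, with a median of 0.52. Loxl2, a lysyl oxidase that crosslinks collagen and elastin, was at 141, 159 and 168.74 TPM against 21.5, 30.6 and 24.4 (2.81 ± 0.35, adjusted p = 0.000243), and Lox itself at 1357 to 1510.1 TPM against 673 to 690 (1.28 ± 0.25). The latent TGF-β binding protein Ltbp1 went the other way, at 13.6 to 25.9 TPM in A-MSCs against 92.2, 95.6 and 96.9 in P-MSCs (−2.08 ± 0.27, adjusted p = 0.00028), as did Loxl4 (−1.51 ± 0.23). Eln, the elastin gene, was at 0 to 0.26 TPM against 0.27 to 1.01 and was not called (adjusted p = 0.309). The list gave 4 calls higher in A-MSCs without A-MSC replicate 3 or P-MSC replicate 1 and 3 without P-MSC replicate 2, and it gave 2 higher in P-MSCs without A-MSC replicate 1 or without any 1 P-MSC replicate. Of 21 tested matrix proteases and their inhibitors, 7 were called higher in A-MSCs and 2 in P-MSCs (median 0.51). Mmp2, a gelatinase, was at 75.9 to 80.04 TPM against 17.7 to 24.9 (2.12 ± 0.32), and Adamts5, an aggrecanase, at 12.9 to 16.6 TPM against 2.71 to 3.55 (2.36 ± 0.39). The inhibitor Timp3 was at 609 to 678 TPM against 241 to 264 (1.53 ± 0.20). Both proteases of P-MSCs were near 1 TPM or less in A-MSCs: Mmp16, a membrane-bound metalloproteinase, was at 5.89, 6.69 and 6.89 TPM against 0.69, 0.45 and 0.48 (−3.40 ± 0.26, adjusted p = 9.73e-06), and Mmp13, a collagenase, at 13.6, 11.4 and 12.6 TPM against 1.05 to 1.08 (−3.36 ± 0.68).

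Integrins and focal adhesion genes, a pathway the study named for A-MSCs from peaks of the same cultures, gave 10 calls higher in A-MSCs and 4 in P-MSCs among 27 tested (median 0.33). Both counts were 5 on log2(TPM + 1), and without P-MSC replicate 1 and replicate 2 there were 5 and 6 calls higher in A-MSCs. Itga11, the α11 subunit that pairs with β1 to bind fibrillar collagen, was at 10.4, 8.57 and 10.8 TPM against 0.28, 0.02 and 0.09 (6.32 ± 0.56, adjusted p = 2.5e-05, and 7.57 without P-MSC replicate 1). Itga1, the other collagen receptor that was called, was at 3.48 to 3.81 TPM against 0.71 to 1.03 (2.17 ± 0.42). Itgb3, the β3 subunit of the vitronectin receptor, was at 1.83 to 3.34 TPM against 0.19 to 0.86 (2.91 ± 0.50, and 4.05 without P-MSC replicate 1). These 3 did not overlap between the tissues. Higher in P-MSCs were Itgb1, Itga8 (2.66, 4.73 and 5.21 TPM against 0.24 to 1.5, −2.15 ± 0.53, and −2.82 without A-MSC replicate 1) and Ptk2, the focal adhesion kinase (46.4 to 52.2 TPM against 21.9 to 28.0, −0.83 ± 0.15).

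Genes that make, carry and clear retinoic acid were called in both directions. Of 18 tested, 7 were called higher in A-MSCs and 2 in P-MSCs, with a median of 0.79. Aldh1a3, which makes retinoic acid from retinal, had the lowest p-value of the named genes, at 73.5, 49.6 and 70.6 TPM against 0.72, 0.55 and 0.37 (log2 fold change 7.06 ± 0.34, adjusted p = 5.5e-07). Dhrs3, a retinal reductase, was at 41.9, 50.3 and 51.7 TPM against 1.74, 1.22 and 3.09 (4.79 ± 0.40). The tissues did not overlap for Aldh1a3 or Dhrs3. Aldh1a1 was at 66.9 to 104 TPM against 26 to 29.2 (1.81 ± 0.46). In P-MSCs the alcohol dehydrogenase Adh7 was higher, at 9.96, 9.61 and 9.08 TPM against 1.30, 0.14 and 0.51 (−3.72 ± 0.52, and −4.69 without A-MSC replicate 1), and so was Crabp1, a retinoic acid binding protein, at 13.8 to 16.6 TPM against 0.55 to 2.27 (−3.29 ± 1.16), whose call was lost without any 1 of the 6 libraries, with the highest adjusted p at 0.134 without A-MSC replicate 1, and whose change was −3.98 without A-MSC replicate 3. Of the receptors, Rara was called higher in A-MSCs (0.49 ± 0.16, adjusted p = 0.0339, a call lost without A-MSC replicate 2 or 3 or P-MSC replicate 2 or 3, up to 0.126 without A-MSC replicate 2), and Rarg, Rxra and Rxrb were not called.

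Immunoregulatory genes of MSCs were more often called higher in A-MSCs than in P-MSCs. Of 15 tested immunoregulatory mediators described for MSCs, 8 were called higher in A-MSCs and none in P-MSCs, with a median of 1.10, where 16.0% of all tested genes were called higher in A-MSCs. Beside that 0 of edgeR, 1 member was higher in P-MSCs at an unadjusted p under 0.05, and 1 was called so by DESeq2, by limma on both TPM scales without alignment, with only the 6 libraries, and without fBM-MSC replicate 1 or 3. Of the 8, Il1rn (5.44) lost its call without any 1 of the 6 libraries or fBM-MSC replicate 1 (adjusted p up to 0.102, without A-MSC replicate 2). Cd274 (2.0) lost its call without A-MSC replicate 2 or 3 or P-MSC replicate 1 or 3 (up to 0.132, without A-MSC replicate 3). Tnfaip6, the anti-inflammatory protein TSG-6, was at 9.86, 11 and 12.9 TPM against 0.80, 1.47 and 0.91 (3.61 ± 0.53, adjusted p = 0.00062). Il6 was at 165, 136 and 136 TPM against 20.6, 28.9 and 24.5 (2.78 ± 0.29, adjusted p = 8e-05). Lif, a cytokine of the same receptor family, was at 6.28 to 8.29 TPM against 2.13 to 3.52 (1.44 ± 0.22). None of these overlapped between the tissues. Hmox1, the abundant haem oxygenase, was at 2509 to 2953 TPM against 1274 to 1640.0 (1.10 ± 0.11), whereas Ptgs2, the inducible cyclooxygenase, was not called, at 528 to 551 TPM against 457 to 508 (0.37 ± 0.20). Nos2, Ido1 and Il10 were at most 0.17 TPM in every library.

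Chemokine ligands gave 6 calls higher in A-MSCs and 1 in P-MSCs among 13 tested (median 1.11). Ccl7, which recruits monocytes, was at 354, 224 and 348 TPM against 42.0, 32.2 and 26.2 (3.42 ± 0.38, adjusted p = 0.000112). Cxcl14 was at 9.11 to 12.1 TPM against 0.29 to 1 (4.05 ± 0.69), and Cxcl16, a membrane-bound chemokine, at 10.6 to 13.5 TPM against 1.94 to 2.97 (2.45 ± 0.19). Cxcl12, which retains blood stem cells in their niche, was the 1 higher in P-MSCs, at 376 to 454 TPM against 197 to 286 (−0.76 ± 0.22), and lost its call without A-MSC replicate 1 or 3 or P-MSC replicate 1 or 3 (adjusted p up to 0.0807, without A-MSC replicate 3). Among 12 tested complement genes, 5 were called higher in A-MSCs and 1, Masp1, in P-MSCs (median 1.01). C3, the central component, was at 3.26, 2.58 and 4.91 TPM against 0.11, 0 and 0.12 (5.64 ± 1.07), C1s1 at 8.27 to 12.5 TPM against 1.30 to 1.59 (3.05 ± 0.31), and Serping1, the C1 inhibitor, at 23.5 to 44.6 TPM against 1.49 to 2.56 (4.13 ± 0.34, adjusted p = 1.68e-05). Of 19 tested interferon-stimulated genes, 6 were called higher in A-MSCs and none in P-MSCs (median 0.99), where edgeR at an unadjusted p under 0.05, DESeq2 and limma also found none and edgeR without A-MSC replicate 2 found 1. Gbp2, an interferon-induced GTPase, was at 7.43 to 10.54 TPM against 2.23 to 3.46 (1.88 ± 0.23, adjusted p = 0.000211). The call of Bst2 was lost without any 1 of the 6 libraries but A-MSC replicate 1 (adjusted p up to 0.112, without A-MSC replicate 2). That of Isg15 was lost without A-MSC replicate 3 or P-MSC replicate 1 or 3 (up to 0.0647), and that of Oas1a without P-MSC replicate 2 (0.0555).

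Growth factors of the Wnt, BMP and IGF families divided between the tissues. Of 33 tested Wnt and BMP ligands and antagonists, 8 were called in each direction and the median was 0.00, a balance that changed under 11 of the 21 alternatives (6 in each direction without P-MSC replicate 3), with a median whose sign changed under 9. Sfrp1, a secreted Wnt antagonist, was at 11.5, 20.1 and 20.2 TPM in A-MSCs against 1.93, 1.18 and 0.78 (3.92 ± 0.38, adjusted p = 5.12e-05), as was Frzb of the same family at 3.45 to 6.74 TPM against 1.63 to 1.95 (1.63 ± 0.34). P-MSCs had instead Dkk2, Grem1, a BMP antagonist, at 157, 173 and 168 TPM against 28.5, 30.5 and 22.2 (−2.42 ± 0.30, adjusted p = 0.000221), and Rspo3, an amplifier of Wnt signals, at 4.26 to 5.39 TPM against 0.26 to 1.14 (−2.29 ± 0.61). The libraries did not overlap for any of them. On the IGF axis, 7 of 12 tested genes were called higher in P-MSCs and 2 in A-MSCs (median −0.51). The RNA-binding proteins of the IGF2 mRNA, normally fetal, were all higher in P-MSCs, with Igf2bp1 at 3.84, 4.05 and 4.73 TPM against 0.57, 0.75 and 0.50 (−2.61 ± 0.33, adjusted p = 0.000248), Igf2bp3 at 11.2 to 14.1 TPM against 1.52 to 3.47 (−2.15 ± 0.33) and Igf2bp2 at 17.7 to 20.3 TPM against 6.95 to 9.27 (−1.07 ± 0.27). The 2 genes higher in A-MSCs, Igfbp2 (367 to 495 TPM against 57.3 to 70.6, 2.91 ± 0.93) and Igfbp6 (190.2 to 234 TPM against 53.5 to 62.6, 2.11 ± 0.73), encode IGF binding proteins and did not overlap, but neither call held without any 1 of the 6 libraries, with adjusted p up to 0.0999 without P-MSC replicate 1 for Igfbp2 and up to 0.13 without P-MSC replicate 2 for Igfbp6, and that of Igfbp6 was also lost without fBM-MSC replicate 2 or either vBM-MSC replicate.

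Most tested genes of the cell cycle were higher in P-MSCs. Of 45 tested genes of DNA replication, 33 were called higher in P-MSCs and none in A-MSCs, with a median log2 fold change of −1.01, where 14.9% of all tested genes were called higher in P-MSCs. Their summed TPM was 1470 to 1520 in the A-MSC libraries and 2550 to 2720 in the P-MSC libraries. The subunits of the replicative helicase changed together, with Mcm2 at 14.7, 22.3 and 17.3 TPM against 55.4, 56.7 and 51.2 (−1.39 ± 0.16) and Mcm6 at 40.2, 51.5 and 41.3 TPM against 105, 101 and 98.7 (−1.0 ± 0.11). The largest change was in Rfc1, the large subunit of the clamp loader, at 2.12 to 3.26 TPM against 12.9 to 14.4 (−2.22 ± 0.24, adjusted p = 8.08e-05). Pcna, the clamp itself, was at 186 to 196 TPM against 355 to 390.1 (−0.74 ± 0.09). In none of the 4 did the tissues overlap. The ribonucleotide reductase genes Rrm1 and Rrm2 were not called, at 138 to 152 against 155 to 170 TPM for Rrm1 (0.04 ± 0.20).

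Of 30 tested genes of mitosis, 22 were called higher in P-MSCs and none in A-MSCs (median −0.98), with 1250 to 1300 summed TPM in A-MSCs and 2340 to 2510 in P-MSCs. Without A-MSC replicate 2 and without P-MSC replicate 3, 13 and 14 were called. Mki67, the proliferation marker Ki-67, was at 0.49, 0.50 and 0.57 TPM against 5, 6.64 and 6.3 (−3.33 ± 0.33, adjusted p = 5.36e-05). The long kinetochore proteins Cenpe (0.69 to 1.25 TPM against 7.54 to 9.08, −2.81 ± 0.37) and Cenpf (0.40 to 0.54 against 2.66 to 3.30, −2.44 ± 0.35) followed it. Birc5, the survivin gene, changed 1.98-fold (−0.98 ± 0.14), from 129 to 134 TPM in A-MSCs to 281 to 309 in P-MSCs. For both lists no member was called higher in A-MSCs under any of the 21 alternatives, DESeq2 and limma included, nor at an unadjusted p under 0.05. Mismatch repair, a function the study named for P-MSCs from these libraries and so no independent evidence, gave 5 of 8 tested genes higher in P-MSCs and none in A-MSCs (median −1.0), led by Exo1 (1.09 to 1.96 TPM against 5.47 to 6.13, −1.81 ± 0.25), and 3 without A-MSC replicate 3 or without any 1 P-MSC replicate. Neither an unadjusted p under 0.05 nor DESeq2 nor limma gave a member higher in A-MSCs.

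Of 16 tested brakes of the cell cycle, 5 were called higher in A-MSCs and 2 in P-MSCs, with a median of 0.08 that turned negative on both TPM scales. Cdkn1a, the p21 inhibitor, was at 358 to 393 TPM against 283 to 312 (0.54 ± 0.10, adjusted p = 0.0022), and Ccng1, another target of p53, at 439 to 517 TPM against 333 to 347 (0.67 ± 0.15). Cdkn2a, which encodes p16 and p19Arf, was higher in P-MSCs, at 12.8, 17.9 and 13.7 TPM against 3.92, 3.14 and 5.22 (−1.59 ± 0.23, adjusted p = 0.000575), and so was Trp53 (−0.48 ± 0.12). The libraries overlapped in none of these 4 genes. Whether the other differences between the tissues move with proliferation was not tested.

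**Figure D4:**
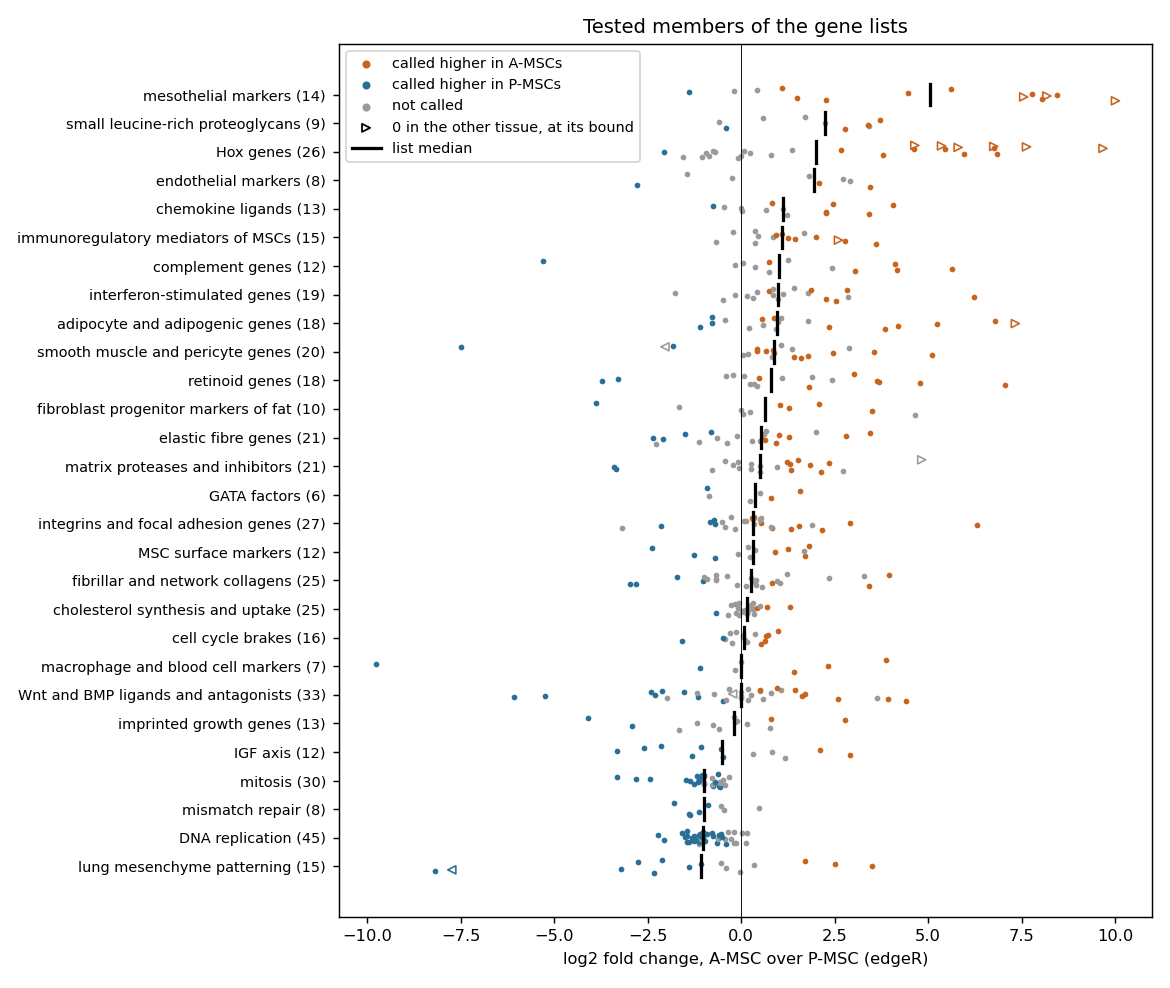
Log2 fold change of every tested member of the gene lists with 6 or more tested members, ordered by the list median (black bar), with the number tested in brackets. Mesothelial and Hox genes extend furthest towards A-MSCs, and the DNA replication and mitosis lists have medians of −1.01 and −0.98 with no call towards A-MSCs.

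In the open chromatin, most regions were shared. At the study's threshold of a −log10 q of at least 7, the A-MSC list held 59873 regions on chromosomes 1 to 19 and the P-MSC list 55648. Of the A-MSC regions, 27.1% (95% exact binomial interval 26.7 to 27.4) had no overlapping region in the P-MSC list, and of the P-MSC regions 20.6% (20.3 to 21.0) had none in the A-MSC list. Each list comes from 1 pool per tissue, so these intervals cover counting error only, and no replicate check was made on them here. Regions in 1 list alone were weaker, with a median fold enrichment of 6.62 against 11.4 for shared regions in both tissues, and more were distal, with 93.4% of A-MSC summits and 93.7% of P-MSC summits more than 1 kb from a start site against 67.3 and 68.3% of the shared ones. When a region had to lack any listed counterpart, however weak, the shares fell to 13.9 and 8.51%, a setting added after the data were seen.

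Near some of the leading genes, the regions divided as the RNA did. Within 50 kb of Wt1 the A-MSC list held 13 regions, all alone, and the P-MSC list none. Around Tbx5 the P-MSC list held 4 regions, all alone, and the A-MSC list none, although the Tbx5 promoter summit itself, at a −log10 q of 6.28, stayed under the threshold. Prdm6 had 10 regions in the P-MSC list, 8 of them alone, against 2 shared in the A-MSC list, and Dkk2 had 7 (5 alone) against 2. Near others they did not. Within 50 kb of Inhbb, higher in A-MSCs, the A-MSC list held 2 regions, none alone, and the P-MSC list 4, of which 2 were alone. Around Krt8, also higher in A-MSCs, it was 7 (1 alone) against 10 (4 alone), around Mgl2, higher in P-MSCs, the A-MSC list held 2, both alone, and the P-MSC list none, and around Hsd3b6 both held 3, none alone. At the promoters, many genes that differed in RNA had a summit in both lists or in neither. Whether the enrichment there differed between the tissues was not tested. Both lists had a promoter summit at Aldh1a3 (8.46-fold in A-MSCs and 8.09-fold in P-MSCs), Tnfaip6 (19.1 and 13.98), Il6 (13.6 and 12.1), Ebf1 (20.2 and 23.5), Sfrp1 (14.3 and 15.1) and Mki67 (21.7 and 23.9), and neither list had one at Hsd3b6, Krt7, Krt8 or Upk3b.

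Promoters were therefore counted over all called genes that could be placed. Of 1850 genes higher in A-MSCs, 5.84% (4.81 to 7.01) had a promoter summit in the A-MSC list alone and 1.19% (0.747 to 1.79) in the P-MSC list alone, against 2.29 and 1.72% of the 7918 genes that were not called. Of 1751 genes higher in P-MSCs, 3.37% (2.57 to 4.33) had one in the P-MSC list alone and 1.31% (0.834 to 1.96) in the A-MSC list alone. Open in both lists were 82.1% of the promoters of genes higher in A-MSCs, 89.5% of those of genes higher in P-MSCs and 87.5% of those of genes not called. Among calls of at least 8-fold, a limit added after the data were seen, the share open in the list of the higher tissue alone was 19.6% of 260 genes for A-MSCs and 22.4% of 125 for P-MSCs, and that in the other list alone 1.92 and 0.80%. At this limit 33.8 and 40.8% were open in both lists, and 44.6 and 36.0% had a summit in neither.

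Sequence motifs at the distal summits of the lists alone differed for most families searched. EBF sites (TCCC and GGGA with any 2 bases between them) lay within 100 bp of 1.73% of the A-MSC summits and 0.273% of the P-MSC summits, a 6.34-fold ratio and a difference of 1.46 percentage points (95% interval 1.23 to 1.68), beside 0.894% of all distal summits. GATA sites (GATAA or GATAG after an A or a T) were at 33.9 and 25.6%, a difference of 8.30 points (7.20 to 9.40), the family for which the study singled out its A-MSCs from the same peaks. AP-1 sites (TGANTCA) went the other way, at 28.5% of A-MSC and 47.3% of P-MSC summits (−18.8 points, −20 to −17.6, all distal summits 41.6%). FOX sites (TGTTTAC) were at 1.98 and 4.79% (−2.81 points, −3.27 to −2.35), and T-box sites (AGGTGTGA) at 0.444 and 0.829% (−0.385 points, −0.584 to −0.186). RUNX (TGNGGT), TEAD (GGAATG) and C/EBP (TTGCNNAA) sites were more frequent at A-MSC summits by 5.10, 4.10 and 2.02 points. For NFI (TTGGC and GCCAA with any 5 bases between them), at 0.0254 and 0.0638%, the interval of the difference included 0. All motifs were searched on both strands, and the windows had a median GC content of 47.3% in A-MSCs and 45.8% in P-MSCs. Of the factor genes, Ebf1 and Ebf2 were higher in A-MSCs and Tbx4, Tbx5, Foxf1 and Foxl1 in P-MSCs, as given above. Of 6 tested GATA factors and their cofactors, 2 were called higher in A-MSCs and 1 in P-MSCs, with a median of 0.37, a balance that changed under 9 of the 21 alternatives. Gata2, at 14.8 to 21.6 TPM in A-MSCs and 17.0 to 19.4 in P-MSCs, and Gata6, at 3.94 to 4.78 and 2.67 to 4.19 TPM, were not called (0.24 ± 0.28 and 0.51 ± 0.69), and Gata3, at 4.13 to 4.39 against 2.70 to 2.85 TPM, was called at 0.80 ± 0.27 and lost the call without any 1 of the 6 libraries (adjusted p up to 0.117 without P-MSC replicate 3). The other call towards A-MSCs, the cofactor Zfpm1 (1.59 ± 0.50), was lost without any 1 of the 6 but A-MSC replicate 1 (adjusted p up to 0.122, without A-MSC replicate 2). The call towards P-MSCs, the cofactor Zfpm2 (−0.91), was lost without any 1 of the 6 but A-MSC replicate 2 and without fBM-MSC replicate 2 (adjusted p up to 0.137, without A-MSC replicate 1).

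**Figure D5:**
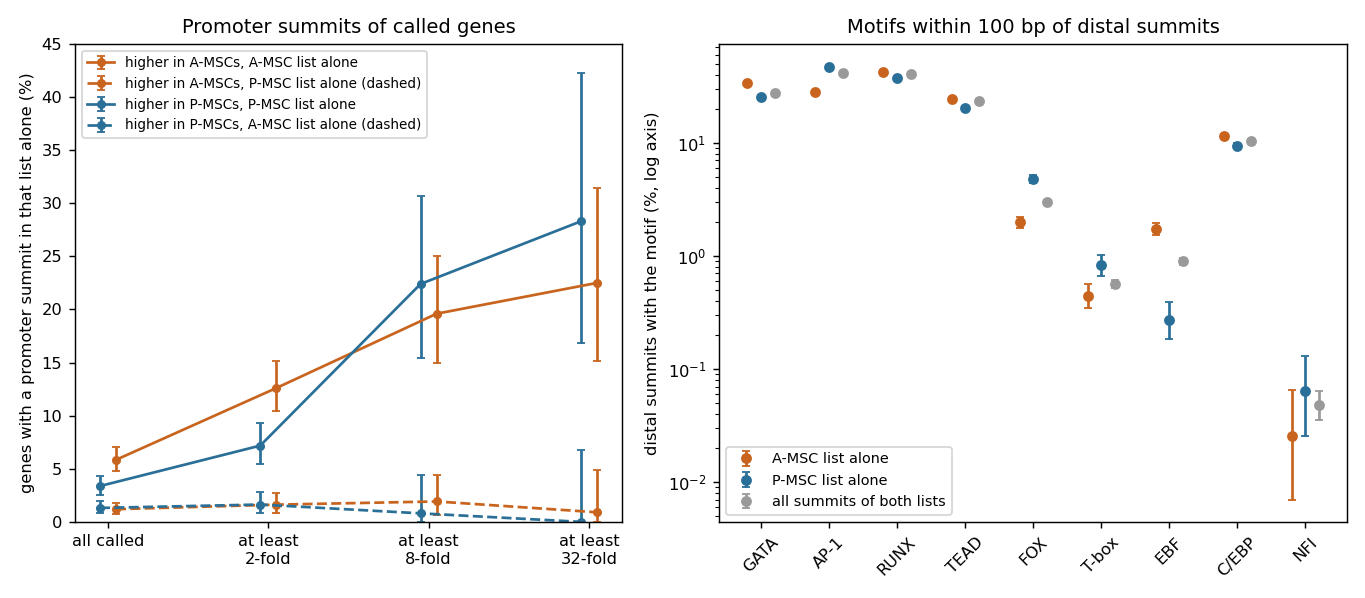
Left, percent of genes called higher in A-MSCs (orange) or P-MSCs (blue) with a promoter summit in the list of the higher tissue alone (solid) or the other list alone (dashed), by minimum fold change, with 95% exact binomial intervals. Right, percent (log axis) of distal summits with each motif in the A-MSC list alone, the P-MSC list alone and all distal summits of both lists, where EBF stands highest in A-MSCs relative to P-MSCs and FOX, T-box and AP-1 stand higher in P-MSCs.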

How the data were processed

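Per the labels and the study's methods, RNA was amplified by Smart-seq2, which selects polyadenylated RNA and keeps neither strand nor molecule of origin. The authors ran RSEM on the mouse genome mm10 and deposited expected counts and TPM per gene. ATAC-seq reads were trimmed with Trim Galore and aligned with Bowtie, after which the authors removed duplicates with Picard and called peaks on the pooled reads of each tissue with MACS2. The deposited lists give the fold enrichment ratio, the −log10 q-value and the summit offset of each peak.

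Expected counts were rounded and fitted with edgeR 4.0.16 (TMM, quasi-likelihood test) on the 11 RNA-seq libraries of the 4 tissues. The third vertebral marrow library was not analysed here. Tests covered genes that reached a CPM of 1 in 2 or more libraries, and a gene was called at a Benjamini-Hochberg adjusted p under 0.05. On simulated counts with known changes for this comparison (12231 genes), 53% of 2-fold and 77% of 4-fold changes were recovered and 2.99% of calls were false. Other scalings, filters, left-out libraries and tools (limma 3.58.1 on log2(TPM + 1), DESeq2 1.42.0) were alternatives, 21 in all.

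The comparison, its 31 gene lists and its motifs were chosen with earlier results of these data known. Named genes are the 10 per direction with the largest change at a TPM of at least 5 in each library of the higher tissue, up to 3 called members per list and direction at a TPM of at least 1, 8 transcription factors per direction and the surface markers. Some genes and sequences that meet these rules are not reported here. Other members, mostly those not called, were chosen after their values were seen.

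Regions were kept at a −log10 q of at least 7 on chromosomes 1 to 19. A region was alone if no base overlapped the other list, a promoter summit lay within 1 kb of a curated RefSeq start site (GRCm38.p6), and motifs were searched within 100 bp of summits on both strands. Reads carry no molecule tags, so intervals and floors cover counting error only.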

Additional observations from a re-analysis of the deposited data

How the results depend on the processing

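The number of called genes was 3869 and moved by less than 1.5 times under other size factors, tools and filters, with 2699 to 4329 when 1 library was left out, and it was 1638 at 2-fold or more. With only the 6 A-MSC and P-MSC libraries, without those of marrow, it was 5263 of 11761 tested genes. The share higher in A-MSCs was 51.7%, ranged from 51.2 to 53.4% (the latter without A-MSC replicate 3) when 1 library was left out and from 50.6 to 52.6% under other count-based settings, but it was 30.1% and 31.2% with limma on log2(TPM + 1) and log2(TPM + 0.1), and 57.7% with library medians aligned, a setting chosen after the data were seen. With the replicate block 3863 genes were called. Same-numbered A-MSC and P-MSC libraries did not deviate together (r across genes −0.004, 0.02 and −0.015), and the numbers were not used to pair them. Such values cannot show whether these libraries share a mouse. Of 141 named genes that were called, 109 were called in the same direction under every alternative. The change of Igfbp5, −3.32, was 0.05 with aligned TPM and −4.97 without A-MSC replicate 1, and its call was lost without A-MSC replicate 2 or 3 or P-MSC replicate 2 or 3 (edgeR adjusted p up to 0.0712). Of regions, 27.1% (A-MSC) and 20.6% (P-MSC) were alone, 23.8 and 22.1% at a −log10 q of at least 20, and 13.9 and 8.51% where any listed region counted. Promoters open in the list of the higher tissue alone made up 5.84% for A-MSCs and 12.6, 19.6 and 22.5% at 2-, 8- and 32-fold, and 3.37% for P-MSCs, 7.18, 22.4 and 28.3% at those folds, and 7.31% at a −log10 q of at least 20, where genes not called also rose, from 1.72 to 5.54%. Motif differences kept their sign. GATA, 8.3 points, was 6.2 within 50 bp, 5.2 within 250 bp and 9.5 at a −log10 q of at least 20. AP-1, −18.8, was −13.7 within 50 bp. FOX, −2.81, was −1.54 and −3.89 within 50 and 250 bp. EBF, 1.46, was 0.86 and 2.3 within 50 and 250 bp (3.07 against 0.765% within 250 bp, a smaller ratio than 6.34) and 1.75 at a −log10 q of at least 20. RUNX, 5.1, was 2.9 at a −log10 q of at least 20, and within 50 bp TEAD, 4.1, was 2.0, C/EBP, 2.02, was 1.27 and T-box, −0.385, was −0.186 (−0.64 within 250 bp). The causes of these shifts were not tested. At these depths, 53% of simulated 2-fold changes were recovered, so a gene that was not called may differ.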

Other observations

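Some genes of immune cells differed between the tissues. Of 25 genes of macrophages and blood cells, 7 were tested, 3 were called higher in A-MSCs and 2 in P-MSCs, with a median log2 fold change of 0.0 whose sign changed under 5 of the 21 alternatives. The list summed to 34.3 to 50.9 TPM in the A-MSC libraries and 29.4 to 34.6 in the P-MSC libraries. Cd53, a tetraspanin of leukocytes, was at 28.3, 18.5 and 14.65 TPM in A-MSCs and 1.59, 1.21 and 1.94 TPM in P-MSCs (3.88 ± 0.30, edgeR adjusted p = 1.24e-05), and Csf1r, the receptor of the macrophage growth factor, at 6.56, 5.69 and 5.46 against 2.64, 2.76 and 2.21 TPM (1.41 ± 0.29). Neither overlapped between the tissues. Lyz2, lysozyme, was at 6.32 to 12.8 TPM against 1.76 to 2.71 (2.33 ± 0.36). In P-MSCs Mgl2 and Cd14 were higher, and the call of Cd14 was lost without any 1 of the 6 libraries. Cd68 was at 3.47 to 5.97 TPM in A-MSCs and 4.48 to 7.38 in P-MSCs, Ptprc was at most 0.35 TPM in these 6 libraries, and Spi1, Aif1 and Fcer1g were listed at 0. The part of such cells in these values was not tested.

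Of 8 tested endothelial genes, 2 were called higher in A-MSCs, but 1 without any 1 of the 6 libraries other than A-MSC replicate 3, and 1, Kdr, in P-MSCs, a call lost without any 1 of the 6 (edgeR adjusted p up to 0.114, without A-MSC replicate 2). Emcn, an endothelial sialomucin, was at 49.5, 5.51 and 2.32 TPM in A-MSCs and 5.13, 4.69 and 0.14 TPM in P-MSCs and was not called. The 1 tested gene of other epithelia, Krt14, a basal keratin, was at 4.35, 2.96 and 5.4 TPM in A-MSCs and had 1 read in P-MSCs, a ratio of 506 (95% counting interval 90.4 to 20000). Neither of the 2 tested genes of skeletal muscle and Schwann cells was called. Of 25 tested genes of cholesterol synthesis and uptake, 3 were called higher in A-MSCs (2 without A-MSC replicate 1 or 3 or P-MSC replicate 2 or 3) and 1, Pmvk, in P-MSCs, a call lost without any 1 of the 6 libraries but P-MSC replicate 3 (edgeR adjusted p up to 0.0944, without P-MSC replicate 1), with a median of 0.16 that turned negative on both TPM scales. Over all tested genes, 16.0% were called higher in A-MSCs and 14.9% in P-MSCs. Of 13 tested imprinted genes, 2 were called in each direction, a balance that changed under 7 of the 21 alternatives (2 and 7 with limma on log2(TPM + 1)), among them Slc38a4, an amino acid transporter, at 1.09, 0.75 and 0.09 TPM in A-MSCs and 12, 9.98 and 15.05 TPM in P-MSCs (−4.09 ± 0.72), and Peg3, at 1.02 to 2.45 against 12 to 14.25 TPM (−2.92 ± 0.49), whose exons overlap those of Peg3os. Of 4 tested genes of the sex chromosomes, 2 were called higher in A-MSCs, by at most 0.53 on the log2 scale, and 1 of these calls was lost without any 1 of the 6 libraries but A-MSC replicate 2 (edgeR adjusted p up to 0.107, without P-MSC replicate 2).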
